A study of Mus musculus with 12 samples.

Results

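The 10 genes described here encode the AP-1 subunits of the FOS family (Fos, Fosb, Fosl1, Fosl2) and of the JUN family (Jun, Junb, Jund), the zinc finger factor Egr1, the stress-response protein Ier3 and the transcription factor Myc. They were taken by gene symbol from the 54532 genes of the deposited count table. All 10 symbols were found, each on 1 row, and all 10 passed the filter on low counts that left 16038 genes for testing. Messenger RNA was sequenced from C2C12 cells, an established mouse skeletal myoblast line, so every library comes from the same line. Dishes at 100% confluency were exposed for 24 h to PFOS (perfluorooctanesulfonate, a persistent perfluorinated surfactant) at 0, 2 or 6 µM, and each dose had 4 libraries. What the 0 µM dishes received in place of PFOS is not given in the sources used here.

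Immediate early genes are genes whose transcription can be switched on within minutes of a growth factor or stress signal, through MAP kinases and factors such as SRF and CREB, without new protein synthesis. FOS proteins pair with JUN proteins through leucine zippers to form AP-1, which binds the sequence TGANTCA (N is any base), while EGR1 binds GC-rich sites and MYC pairs with MAX on the E-box CACGTG. Fos, Fosb and Egr1 mRNA usually peaks early and is short-lived, Fosl1 and Fosl2 mRNA tends to rise later and to last longer, and in muscle precursor cells high AP-1 or MYC activity is known to hold back differentiation driven by MYOD1.

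The bases just before the gene starts of Jun, Ier3 and Fos are shown because these genes stand for the behaviours seen below: a small rise at both doses, a larger rise at 6 µM, and no detected change. The sequences are from RefSeq on GRCm38.p6, 5′ to 3′ on the strand of the gene, and end at the base before the gene start given in the deposited table. Capitals mark matches to the motifs searched. Jun lies on the minus strand (chr4:95052223-95052472), Ier3 on the plus strand (chr17:35821463-35821683) and Fos on the plus strand (chr12:85473640-85473889).
Jun: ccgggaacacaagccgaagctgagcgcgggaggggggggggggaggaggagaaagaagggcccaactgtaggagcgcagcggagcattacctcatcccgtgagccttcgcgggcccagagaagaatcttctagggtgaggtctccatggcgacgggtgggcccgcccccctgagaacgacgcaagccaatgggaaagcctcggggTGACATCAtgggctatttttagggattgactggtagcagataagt
Ier3: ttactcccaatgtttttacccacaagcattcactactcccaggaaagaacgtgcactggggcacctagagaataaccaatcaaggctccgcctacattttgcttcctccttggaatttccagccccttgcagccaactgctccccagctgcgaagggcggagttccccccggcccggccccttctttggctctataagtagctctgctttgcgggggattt
Fos: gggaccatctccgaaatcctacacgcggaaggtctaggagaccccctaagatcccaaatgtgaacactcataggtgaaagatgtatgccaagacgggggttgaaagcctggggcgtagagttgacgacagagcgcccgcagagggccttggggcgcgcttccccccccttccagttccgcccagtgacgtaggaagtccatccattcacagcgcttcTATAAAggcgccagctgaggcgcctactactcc
The capitals in Jun mark TGACATCA, a match to TGACNTCA that starts 45 bases before the gene start and has the letters of the AP-1-like element long described in this promoter. This pattern was added to the search after the sequences were seen. In Fos the capitals mark a TATAAA that starts 33 bases before the gene start. No motif searched matched in the bases shown for Ier3.

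The search covered both strands from 250 bases before to 50 after each gene start, and 7 of the 10 genes had an entry among 32851 promoters. Fosl1, Myc and Egr1 had none. The consensus TGANTCA was present in 7.81% of all promoters, TGACGTCA in 1.79%, TGACNTCA (which includes the previous pattern) in 8.83%, CACGTG in 7.15%, GCGTGGGCG in 0.612%, GCGGGGGCG in 2.91%, the CArG box bound by SRF in 1.63% and TATAAA in 13.6%. Besides the matches in Jun and Fos, GCGGGGGCG was present in the promoters of Fosb and Fosl2, starting 50 and 79 bases before the gene start, and TATAAA began at the gene start of Junb. A match describes these letters only, and no binding was measured.

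At 0 µM, levels differed widely between the 10 genes. Levels are CPM (a gene's share of the counts of a library, scaled to the same total in all) divided by the gene length in kilobases that the deposited table gives, which allows genes to be compared. Ier3 stood highest at 137.4 ± 17.1 CPM per kb (SD, n = 4), above 98.1% of the tested genes. Junb followed at 53.3 ± 5.27, Myc at 34.1 ± 1.12 and Jun at 23.6 ± 1.10 CPM per kb, and the ranges of neighbours among these genes did not overlap. Fosl1 (21.5 ± 2.87), Jund (16.6 ± 3.91) and Fosl2 (14.9 ± 1.58 CPM per kb) came next. Within the run Jun, Fosl1, Jund, Fosl2 each gene overlapped the next in range. Egr1 stood lower, at 4.77 ± 0.628 CPM per kb, near the middle of all tested genes (percentile 51.9).

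Fos and Fosb, the AP-1 genes best known for a fast and short response, were the least abundant of the 10 at every dose. At 0 µM Fos stood at 0.656 ± 0.148 CPM per kb (percentile 22.9) and Fosb at 0.225 ± 0.0443 CPM per kb (percentile 11.8). Each library held only 44 to 86 counts of Fos and 38 to 78 of Fosb, so their precision was low. With PFOS the order changed at 1 place: Fosl1 passed Jun, at 28.6 ± 0.730 against 27.1 ± 0.999 CPM per kb at 2 µM (ranges overlapped) and at 31.9 ± 1.83 against 27.3 ± 1.60 CPM per kb at 6 µM (ranges did not overlap).

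After 24 h, 5 of the 10 genes were higher in PFOS-treated cells in at least 1 comparison, and none was called lower. A gene was called at an adjusted p under 0.05 (edgeR's quasi-likelihood test, Benjamini-Hochberg over all 16038 genes). Fosl1, Jun and Myc rose at 2 µM against 0 µM, 3 of 10, where 2.35% of all genes were called, 1.61% higher and 0.742% lower. With upper-quartile scaling the split over all genes there was 184 higher and 134 lower in place of 258 and 119. At 6 µM against 0 µM, Fosl1, Fosl2, Jun, Ier3 and Myc rose, 5 of 10, where 8.24% of all genes were called, 4.58% higher and 3.66% lower. The larger direction over all genes turned there with upper-quartile scaling, to 598 higher against 662 lower in place of 735 against 587. None of the 10 was called at 6 µM against 2 µM, where 1.11% of all genes were called, 0.561% higher and 0.549% lower, and Fosl1, Ier3 and Egr1 had an unadjusted p under 0.05 there. Of the 12362 genes with a mean count of at least 50, 274 were called higher and 135 lower at 2 against 0 µM. At 6 against 0 µM these were 756 and 633. All are larger shares than over all tested genes, so the latter is a low yardstick for abundant genes. The median log2 fold change over the 10 genes was 0.137, 0.184 and 0.0319 in the 3 comparisons, beside -0.0108, -0.0156 and -0.00465 over all tested genes. The 10 genes were chosen with earlier results of these data known, so the shares called describe them and test no enrichment. Both comparisons with 0 µM use the same 4 control libraries. Whether the 4 libraries at a dose stem from separate cultures is not stated, so the p-values cover the spread among these libraries alone, and that spread may be technical. In bulk RNA, a change in the number of cells that express a gene and a change in RNA per cell cannot be told apart.

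**Figure D1:**
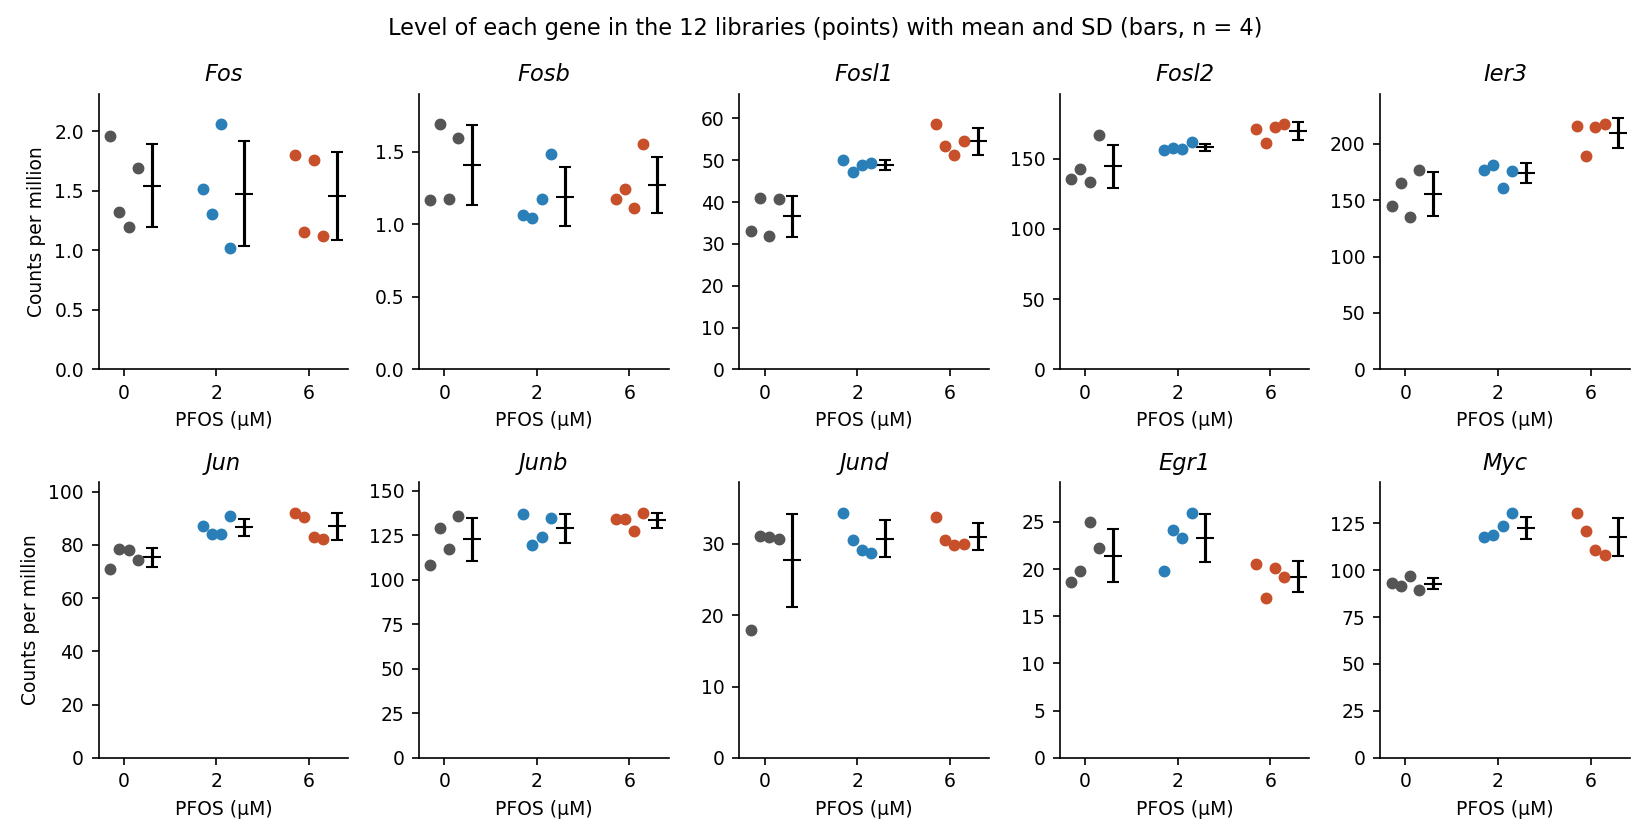
CPM (vertical axes, each from 0) of the 10 genes at 0, 2 and 6 µM PFOS; points are libraries and bars the mean and SD of 4. The 4 libraries at 6 µM lie above all 4 at 0 µM for Fosl1, Ier3, Jun and Myc, whereas Fos and Fosb stay between 1.02 and 2.06 with overlapping doses.

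Fosl1, which encodes FRA-1, an AP-1 subunit without the strong activation domain of FOS, had the largest log2 fold change of the 10 genes at 6 µM. Fosl1 (ENSMUSG00000024912, chr19:5447703-5455945, plus strand, GRCm38) stood at 33.0, 41.0, 31.9 and 40.8 CPM in the 0 µM libraries, at 50.01, 47.1, 48.8 and 49.4 CPM at 2 µM, and at 58.6, 53.4, 51.2 and 54.7 CPM at 6 µM. The 3 doses did not overlap, and libraries at a higher dose lay above those at a lower one. Fosl1 was 1.33-fold higher at 2 µM (log2 fold change 0.41, SE 0.0753, edgeR adjusted p = 0.00497) and 1.49-fold higher at 6 µM (0.57, SE 0.0752, adjusted p = 3.13e-05). Between 6 and 2 µM the log2 fold change was 0.16 with a 95% interval of 0.00 to 0.31, which did not pass adjustment (adjusted p = 0.385).

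Fosl2, which encodes the related subunit FRA-2, changed less. Fosl2 (ENSMUSG00000029135, chr5:32135801-32157842, plus strand) stood at 135.4, 142.7, 133.5 and 166.8 CPM at 0 µM, at 155.9, 157.2, 156.9 and 161.5 CPM at 2 µM, and at 171.0, 160.7, 172.2 and 174.5 CPM at 6 µM. At 0 µM, replicate 4 lay above every 2 µM library and above replicate 2 at 6 µM, so the doses overlapped. Fosl2 was 1.17-fold higher at 6 µM than at 0 µM (log2 fold change 0.23, SE 0.0557, edgeR adjusted p = 0.0112). At 2 µM the log2 fold change was 0.13 (95% interval 0.01 to 0.24, adjusted p = 0.281). The call at 6 µM ended without replicate 3 of 0 µM (adjusted p = 0.0549), and a call at 2 µM appeared without replicate 4 of 0 µM (adjusted p = 0.0216).

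Fos and Fosb encode the subunits with strong activation domains. Fos (ENSMUSG00000021250, chr12:85473890-85477273, plus strand) stood at 1.96, 1.32, 1.20 and 1.69 CPM at 0 µM, at 1.52, 1.302, 2.06 and 1.02 CPM at 2 µM, and at 1.80, 1.15, 1.76 and 1.118 CPM at 6 µM. Fosb (ENSMUSG00000003545, chr7:19302696-19310051, minus strand) stood at 1.16, 1.69, 1.17 and 1.60 CPM at 0 µM, at 1.06, 1.04, 1.17 and 1.48 CPM at 2 µM, and at 1.18, 1.24, 1.11 and 1.55 CPM at 6 µM. The 3 doses overlapped for both genes. At 6 µM against 0 µM the 95% interval of the log2 fold change ran from -0.70 to 0.55 for Fos and from -0.75 to 0.45 for Fosb, and the log2 fold change of Fosl1 at that dose (0.57) lay above both. At 2 µM the interval ran from -0.69 to 0.56 for Fos, which includes the 0.41 of Fosl1, and from -0.84 to 0.36 for Fosb, which lies below it. The 95% interval of Fosl1 itself, 0.42 to 0.73 at 6 µM and 0.26 to 0.57 at 2 µM, overlapped those of both genes. Whether the genes differed in their change was not tested. At 6 µM the sign for Fos changed without replicate 1 of 0 µM or replicate 2 or 4 of 6 µM (0.06 without the first of these).

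Among the JUN genes, Jun rose by a small amount at both doses. Jun (ENSMUSG00000052684, chr4:95049034-95052222, minus strand) encodes the JUN subunit with the strongest activation domain. It stood at 70.8, 78.3, 77.9 and 74.5 CPM at 0 µM, at 87.2, 84.2, 84.0 and 90.8 CPM at 2 µM, and at 92.1, 90.7, 82.9 and 82.3 CPM at 6 µM. All 8 PFOS libraries lay above the 4 at 0 µM, and the PFOS doses overlapped each other. Jun was 1.15-fold higher at 2 µM (log2 fold change 0.20, SE 0.0529, edgeR adjusted p = 0.0486) and 1.15-fold higher at 6 µM (0.21, SE 0.0529, adjusted p = 0.0169), and the 2 PFOS doses differed by 0.01 (95% interval -0.10 to 0.12). The call at 2 µM lay at the threshold and ended in 15 of 21 alternative fits, among them each of the 8 that left out a library of either dose (adjusted p up to 0.199). The call at 6 µM ended without replicate 1 or 2 of 6 µM (adjusted p = 0.0674 and 0.0504). An antisense gene, Junos, overlaps 689 bases of Jun and stood at 2.36, 2.38 and 2.46 CPM on average at 0, 2 and 6 µM, and no strand setting of the counting is stated.

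Junb, which can oppose JUN at growth-promoting targets, was not called. Junb (ENSMUSG00000052837, chr8:84974484-84978718, minus strand) stood at 108.5, 129.3, 117.4 and 135.6 CPM at 0 µM, at 137.1, 119.7, 124.2 and 134.4 CPM at 2 µM, and at 134.3, 134.1, 127.2 and 137.7 CPM at 6 µM. The doses overlapped, with replicates 1 and 3 at 0 µM below every PFOS library. The log2 fold change was 0.07 at 2 µM (95% interval -0.05 to 0.19) and 0.12 at 6 µM (95% interval -0.01 to 0.24, adjusted p = 0.257 by edgeR's quasi-likelihood test). Junb shares 351 bases with Prdx2 on the other strand, a peroxiredoxin gene at 653.3, 602.7 and 620.6 CPM at 0, 2 and 6 µM, so reads in the overlap cannot be assigned without a strand setting.

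Jund, the JUN subunit usually present in resting cells, was not called either. Jund (ENSMUSG00000071076, chr8:70698949-70700616, plus strand) stood at 17.9, 31.2, 31.0 and 30.8 CPM at 0 µM, at 34.4, 30.6, 29.2 and 28.7 CPM at 2 µM, and at 33.8, 30.5, 29.9 and 29.98 CPM at 6 µM. Replicate 1 at 0 µM lay far below the other 11 libraries, which spanned 28.7 to 34.4 CPM. With it the log2 fold change at 2 µM was 0.15 (95% interval -0.10 to 0.39), and without it -0.01.

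Egr1, a zinc finger factor of the growth factor response, was not called, and its mean was highest at 2 µM and lowest at 6 µM. Egr1 (ENSMUSG00000038418, chr18:34859823-34864984, plus strand) stood at 18.6, 19.8, 24.9 and 22.3 CPM at 0 µM, at 19.8, 24.1, 23.3 and 25.98 CPM at 2 µM, and at 20.5, 16.9, 20.2 and 19.2 CPM at 6 µM. The doses overlapped. The log2 fold change was 0.12 at 2 µM (95% interval -0.08 to 0.33) and -0.16 at 6 µM (95% interval -0.36 to 0.05). Without single libraries it ran from 0.06 (without replicate 1 of 0 µM) to 0.21 (without replicate 3 of 0 µM) at 2 µM, and from -0.22 to -0.07 at 6 µM without the same libraries. Between 6 and 2 µM it was -0.28 (95% interval -0.48 to -0.08, unadjusted p = 0.00919), which did not pass adjustment by edgeR's quasi-likelihood test (adjusted p = 0.202).

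Ier3, also known as IEX-1, is a stress-inducible gene whose product affects cell survival and ERK signalling. Ier3 (ENSMUSG00000003541, chr17:35821684-35822923, plus strand) stood at 144.5, 165.5, 134.7 and 177.1 CPM at 0 µM, at 176.9, 181.3, 160.8 and 176.1 CPM at 2 µM, and at 215.4, 189.3, 215.2 and 217.3 CPM at 6 µM. All 4 libraries at 6 µM lay above the other 8, and 0 and 2 µM overlapped. Ier3 was 1.35-fold higher at 6 µM than at 0 µM (log2 fold change 0.43, SE 0.0674, edgeR adjusted p = 0.000251). At 2 µM the log2 fold change was 0.16 (95% interval 0.02 to 0.30, adjusted p = 0.258), from 0.10 without replicate 3 of 0 µM to 0.23 without replicate 4 of 0 µM, and it was called in 1 of 21 alternative fits, that with no count filter (adjusted p = 0.0404). Between 6 and 2 µM Ier3 was 1.20-fold higher (0.27, SE 0.0671), which lay just outside the threshold (adjusted p = 0.0518) and passed it in 10 of 21 alternative fits.

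Myc, the bHLH factor that drives growth and ribosome production, rose at 2 µM and stood no higher at 6 µM. Myc (ENSMUSG00000022346, chr15:61985391-61990374, plus strand) stood at 93.2, 91.6, 96.7 and 89.5 CPM at 0 µM, at 117.5, 118.6, 123.3 and 130.6 CPM at 2 µM, and at 130.6, 121.0, 110.8 and 108.1 CPM at 6 µM. All 8 PFOS libraries lay above the 4 at 0 µM, and the PFOS doses overlapped. Myc was 1.32-fold higher at 2 µM (log2 fold change 0.40, SE 0.0558, edgeR adjusted p = 0.000278) and 1.27-fold higher at 6 µM (0.34, SE 0.0558, adjusted p = 0.000373). The difference between 6 and 2 µM was -0.06 (95% interval -0.17 to 0.06, adjusted p = 0.745).

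Doses did not overlap for 3 of the 10 genes at 2 µM against 0 µM, for 4 at 6 µM against 0 µM and for 2 at 6 µM against 2 µM, where this held for 8.37%, 12.5% and 8.60% of all tested genes. The calls of Fosl1 and Myc at both doses and of Ier3 at 6 µM held in all 21 alternative fits (adjusted p at most 0.0254, 0.000597, 0.00279, 0.00516 and 0.00232). The calls of Jun and Fosl2 at 6 µM ended without the 3 libraries farthest from their dose means, replicate 1 of 0 µM and replicates 2 and 3 of 6 µM (adjusted p = 0.118 and 0.0612).

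**Figure D2:**
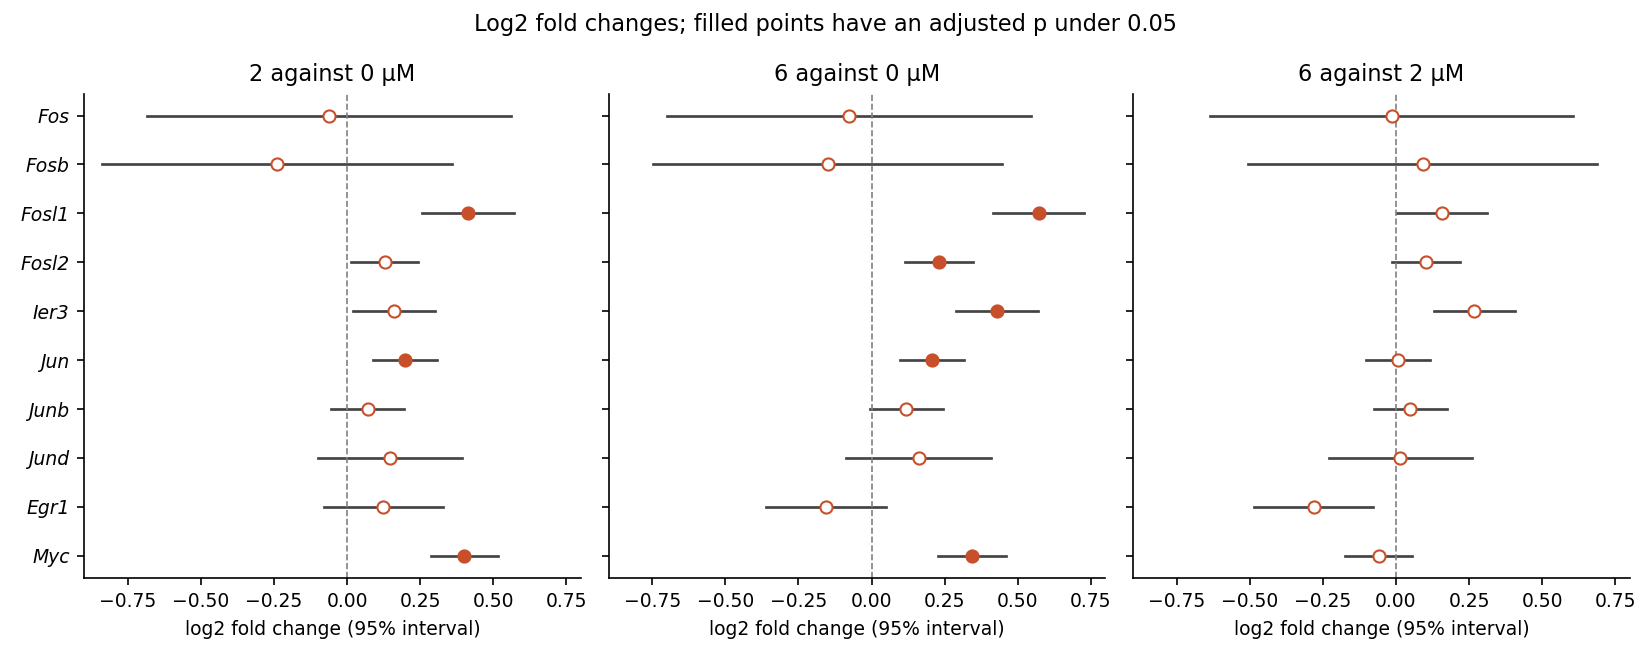
Log2 fold changes (horizontal axis) of the 10 genes (rows) in the 3 comparisons, with 95% intervals as lines; filled points have an adjusted p under 0.05. Filled points lie right of 0 for 3 genes at 2 against 0 µM and for 5 at 6 against 0 µM, none is filled at 6 against 2 µM, and the intervals of Fos and Fosb are the widest.

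In the FOS family, Fosl1 made up more of the RNA in every PFOS library than in any 0 µM library. This difference did not pass adjustment, in a test that left little room to do so. Of the summed CPM per kb of Fos, Fosb, Fosl1 and Fosl2, Fosl1 held 57.5 ± 2.12% at 0 µM, 62.6 ± 0.612% at 2 µM and 63.5 ± 1.47% at 6 µM (SD, n = 4). Fosl2 held 40.1 ± 1.96%, 35.7 ± 0.710% and 34.9 ± 1.40%. Libraries with and without PFOS did not overlap in either share, nor in that of Fosb (0.600%, 0.417% and 0.405%). Each of these differences from 0 µM had p = 0.0286 by a two-sided exact permutation test, the smallest p that 4 against 4 libraries allow. The adjusted p of this test was 0.1 over 21 tests, so none passed adjustment. An adjusted p under 0.05 was possible only if most of the 21 tests had that smallest p. The adjusted result therefore decides little. The level of Fosl2 itself was not lower with PFOS, and the summed family level was 37.3 ± 4.25, 45.7 ± 0.804 and 50.2 ± 2.07 CPM per kb at 0, 2 and 6 µM.

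The JUN family kept Junb as its largest part. Junb held 57.0%, 55.1% and 55.8% of the summed CPM per kb at 0, 2 and 6 µM, Jun 25.4%, 26.7% and 26.3%, and Jund 17.6%, 18.1% and 17.9%. The exact permutation test gave p between 0.171 and 0.943 for these shares, with overlapping doses. The summed level was 93.6 ± 9.46, 101.6 ± 5.16 and 103.8 ± 3.48 CPM per kb. Shares of RNA say nothing of the dimers formed by the proteins.

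**Figure D3:**
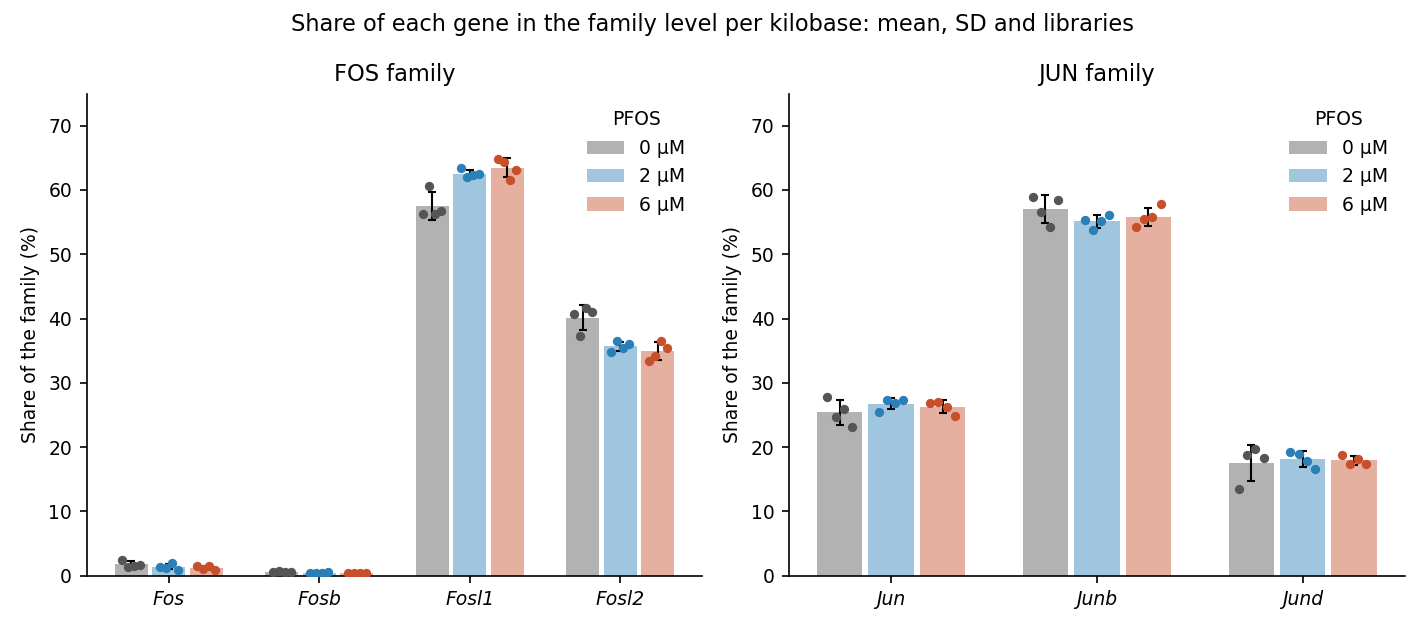
Share of each gene in the summed CPM per kb of the FOS family (left) and JUN family (right), in percent, at 0, 2 and 6 µM PFOS; bars are means from 0, error bars SD and points the 4 libraries. Fosl1 goes from 57.5% at 0 µM to 63.5% at 6 µM and Fosl2 from 40.1% to 34.9%, while the JUN shares overlap between doses.

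Whether the genes varied together between libraries of a dose was tested for every pair, and no pair passed adjustment. Pearson correlations of log2 CPM with the dose means removed were computed over the 12 libraries for all 45 pairs. They ranged from -0.453 to 0.838 with a median of 0.204, and 30 were positive. Fosl2 and Ier3 had the highest r, 0.838 (exact permutation within doses, p = 0.00564, adjusted p = 0.254; Spearman rho 0.664, p = 0.0379), and it was 0.808 without the 2 libraries farthest from the median of Fosl2. Fosl1 and Junb had r = 0.796 (exact permutation p = 0.0264, adjusted p = 0.410; rho 0.874, p = 0.00427), and 0.853 without 2 such libraries. Deviations from the dose mean at 0 µM ran from -0.11 to 0.212 for Fosl2 and from -0.192 to 0.171 for Fosl1 (log2). At 2 µM they ran from -0.0182 to 0.0328 and from -0.0512 to 0.0345, so the 0 µM libraries weigh most in both r. Jun and Myc had r = 0.731 (exact permutation p = 0.0394, adjusted p = 0.410; rho 0.692) and 0.803. Of the 45 pairs, 5 had an unadjusted p under 0.05, and the r of Jun with Jund fell from 0.569 to 0.0586 without 2 libraries. The genes of a pair share each library's RNA, depth and scaling.

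**Figure D4:**
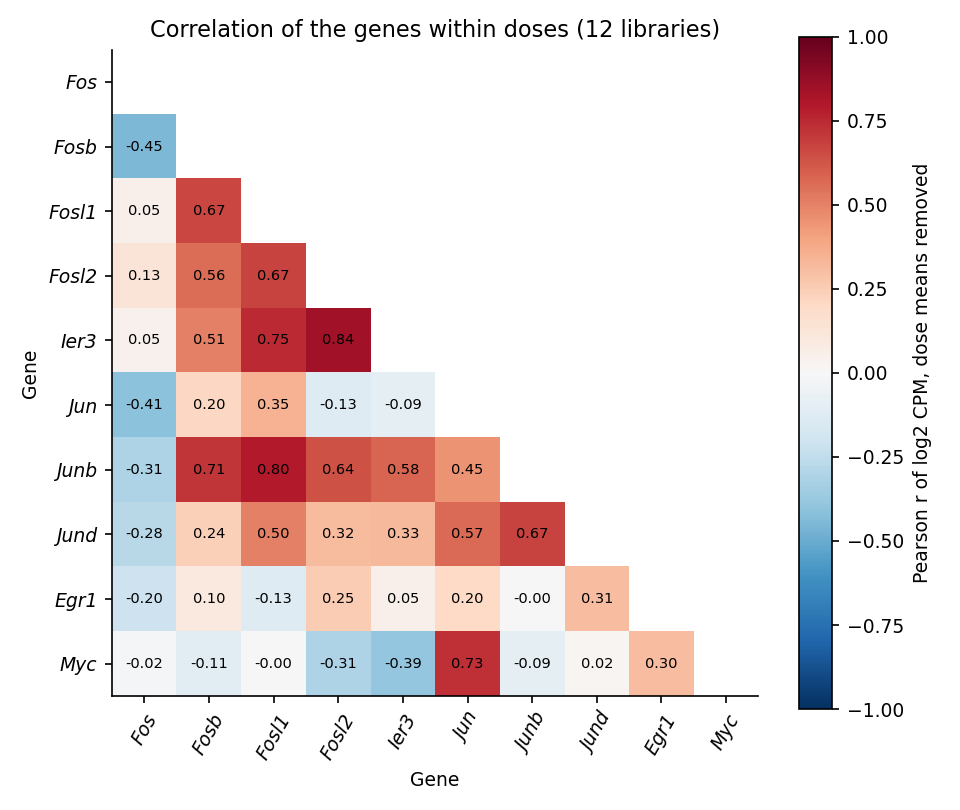
Pearson r (colour and printed value) of log2 CPM for each pair of the 10 genes over 12 libraries, after the mean of each dose was removed. The darkest cells join Fosl2 with Ier3 (0.84) and Fosl1 with Junb (0.80), and no pair passed adjustment over the 45 pairs.

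The genes whose log2 CPM followed each called gene most closely over the 12 libraries were found among 10863 protein-coding genes, with the dose differences left in. These are descriptions, ranked by Pearson r. Cadm1 (0.965) and Phactr4 (0.951) were most like Fosl1, and the mean of Phactr4 was 68.5, 77.1 and 81.9 CPM at 0, 2 and 6 µM. Tshz3 (0.949), Dusp4 (0.947) and Peak1 (0.944) were most like Fosl2. Shmt2 (0.961), Artn (0.956) and Mmp11 (0.951) were most like Jun, and the mean of Artn was 21.4, 29.6 and 29.7 CPM. Kctd11 (0.985), Arrb1 (0.970) and Acss2 (0.966) were most like Ier3, and the mean of Kctd11 was 46.9, 53.3 and 64.0 CPM. Ets2 (0.969), Epha2 (0.968) and Atf3 (0.959) were most like Myc, each with its highest mean at 2 µM.

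Other immediate early genes, outside the 10, were called higher in part. Of 24 tested, 7 rose and none fell at 2 µM, 6 rose and none fell at 6 µM, and 1 rose and 1 fell at 6 against 2 µM. These were 29.2%, 25% and 8.33% of the list, beside 2.35%, 8.24% and 1.11% of all tested genes. The median log2 fold changes were 0.146, 0.0568 and -0.0708, beside -0.0108, -0.0156 and -0.00465 over all tested genes. This list and those below were also chosen with earlier results known, so their shares called are descriptions and test no enrichment. Some genes stand in more than 1 list, and their calls are counted in each. Atf3, a stress-induced factor that also dimerises with JUN, went from 25.1 ± 2.66 CPM at 0 µM to 43.7 ± 5.20 at 2 µM (edgeR adjusted p = 0.000163) and 39.2 ± 6.33 at 6 µM (adjusted p = 0.000351). Klf10, a zinc finger gene induced by TGF-beta, rose at each step, from 27.7 ± 1.42 to 38.9 ± 2.81 and 56.9 ± 2.96 CPM, and was also called at 6 against 2 µM (edgeR adjusted p = 3.98e-05). Cyr61, a secreted matricellular protein, went from 351.8 ± 17.7 to 472.5 ± 11.98 CPM at 2 µM and back to 370.7 ± 23.6 CPM at 6 µM, and its fall between the PFOS doses was called (edgeR adjusted p = 0.000188). Without the 3 most deviating libraries the count at 6 µM was 3. Srf, which encodes the factor that switches on many of these genes, was not called at 81.8, 83.1 and 74.8 CPM, and the Egr1 relatives Egr2 and Egr3 stayed under 1 CPM on average.

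Of the 12 tested genes for other dimer partners of AP-1 subunits, 2 rose at 2 µM and 3 at 6 µM, and none fell. The shares were 16.7% and 25%, beside 2.35% and 8.24% of all tested genes. The genes called were Atf3 and Atf4 at 2 µM and Atf3, Atf4 and Maff at 6 µM. Atf3 and Maff also belong to the other immediate early genes above, so their calls are counted in both lists. Maff, a small MAF factor, was 1.24-fold higher at 6 µM (edgeR adjusted p = 0.00403). Atf4, the factor of the integrated stress response, was 1.11-fold and 1.125-fold higher, and its call ended in 5 of 21 alternative fits at 2 µM and in 1 at 6 µM. The count at 2 µM ranged from 1 to 5 over these fits. A wider count by the factor family given in the deposited table, chosen after the values were seen, had 36 bZIP genes besides the 7 AP-1 genes described here. Of these, 19.4% were called at 2 µM and 16.7% at 6 µM, beside 3.25% and 8.32% of 986 genes with any factor family. Atf3, Atf4 and Maff are among the 36, so their calls are counted here again. The bZIP genes called lower at 2 µM were Tef and Dbp, both known as clock-controlled genes.

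Genes that act before the 10 genes were read beside the 2.35% of all genes called at 2 µM and 8.24% at 6 µM. Of 19 kinases of the MAP kinase cascades, none was called at 2 µM, and at 6 µM only Map2k1, which encodes MEK1, was (5.26% of the list, 1.124-fold, edgeR adjusted p = 0.0318, a call that ended in 7 of 21 alternative fits). Of 14 SRF, TCF and CREB factors and their coactivators, only Ep300 was called, at 6 µM (7.14% of the list, 1.15-fold, edgeR adjusted p = 0.0184, ended in 4 of 21). Of 18 growth factor ligands and receptors, 3 rose at 2 µM, and at 6 µM 2 rose and 1 fell. At each dose this was 16.7% of the list, above the share of all genes. Hbegf, an EGF receptor ligand, rose from 24.7 ± 0.630 to 33.1 ± 3.48 CPM at 2 µM (edgeR adjusted p = 0.00413), and the count there fell to 1 without replicate 2 of 0 µM or replicate 4 of 2 µM, as the calls of Ereg and Il6st ended. Areg, another EGF receptor ligand, rose from 5.96 ± 1.72 to 10.5 ± 1.68 CPM at 6 µM (edgeR adjusted p = 0.00242), and Ereg was 1.28-fold higher (ended in 4 of 21). Pdgfrb, a PDGF receptor gene, was 1.19-fold lower at 6 µM (edgeR adjusted p = 0.000949).

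Of 16 feedback inhibitors of MAP kinases tested, 1 was called in each comparison, 6.25% of the list beside 2.35%, 8.24% and 1.11% of all genes. The count of higher calls at 2 µM ran from 0 to 3 over the 21 alternative fits (0 without replicate 2 of 0 µM or replicate 2 of 2 µM, 3 without replicate 4 of 0 µM), and that at 6 µM from 1 to 3, being above 1 in 10 of them, among these the fits without replicate 3 or 4 of 0 µM or replicate 2 or 3 of 6 µM. Dusp6, an ERK phosphatase, was 1.24-fold higher at 2 µM (edgeR adjusted p = 0.0206), a call that ended without replicate 2 of 0 µM or replicate 2 of 2 µM. Dusp4, another MAP kinase phosphatase, rose from 24.0 ± 3.70 to 34.9 ± 2.33 CPM at 6 µM (edgeR adjusted p = 0.000362). Spry1 was 1.27-fold lower at 6 than at 2 µM (edgeR adjusted p = 0.0339), a call that ended in 6 of 21 alternative fits. Of 12 genes known as readouts of ERK activity, Fosl1 among them, 4 rose at each dose (33.3% of the list) and none fell. They were Fosl1, Epha2 and Ccnd1 at both doses, with Dusp6 at 2 µM and Dusp4 at 6 µM. Fosl1 is itself 1 of the 10 genes described here, so its call adds nothing new to this count. Dusp4 and Dusp6 are also counted among the feedback inhibitors, and Ccnd1 among the AP-1 target genes below. The call of Ccnd1 at 2 µM ended in 14 of 21 alternative fits. The count at 2 µM fell to 2 without replicate 2 of 0 µM or replicate 2 of 2 µM.

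AP-1 target genes were called mostly higher, with 1 called lower at 6 µM. Of 17 tested, 5 rose at 2 µM, and at 6 µM 7 rose and 1 fell. These were 29.4% and 47.1% of the list, beside 2.35% and 8.24% of all tested genes. The list was chosen with earlier results of these data known. The median log2 fold changes were 0.14 and 0.173, beside -0.0108 and -0.0156 over all tested genes. Plau, which encodes the urokinase plasminogen activator, was the gene called lower, 1.37-fold at 6 µM (edgeR adjusted p = 0.00258). Ptgs2, the inducible cyclooxygenase, went from 78.8 ± 9.45 to 117 ± 9.23 CPM at 2 µM and 99.0 ± 5.33 CPM at 6 µM, and was called at both (edgeR adjusted p = 0.000103 and 0.00428). Hmga1, a chromatin protein, was at 23.8 ± 2.42, 30.3 ± 2.44 and 43.3 ± 2.55 CPM and was called in all 3 comparisons, though its call at 2 µM ended in 4 of 21 alternative fits. Hmox1, the inducible heme oxygenase, was 1.31-fold higher at 6 than at 0 µM and 1.19-fold higher at 6 than at 2 µM. The calls of Ccnd1 and Vegfa at 2 µM ended in 14 and 11 of 21 alternative fits, and the count there was 2 to 3 in 9 of them, among them the fit with a replicate block and those without replicate 1 or 3 of 0 µM or any 1 library of 2 µM. Of the 4 listed genes that failed the filter on low counts, all were matrix metalloproteinases.

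Of 10 tested EGR1 target and NAB corepressor genes, none was called at 2 µM and 1 at 6 µM (Tnfrsf10b, 1.15-fold higher, ended in 9 of 21 alternative fits). The 10% at 6 µM lay near the 8.24% of all tested genes, and 2.35% of all were called at 2 µM. Nab1 stood at 82.5, 76.4 and 83.4 CPM and Nab2 at 43.8, 42.3 and 40.9 CPM at 0, 2 and 6 µM, with no call.

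In the network of MYC partners, Mxd4, which encodes an antagonist that competes with MYC for MAX, was lower at both PFOS doses. It fell from 87.4 ± 2.38 CPM to 67.9 ± 1.37 at 2 µM and 66.4 ± 2.09 at 6 µM (edgeR adjusted p = 0.000163 and 9.98e-06), the opposite direction to Myc. Mxi1, another MAX partner that opposes MYC, was 1.20-fold higher at 6 µM (edgeR adjusted p = 0.00452). Max itself was not called, at 34.9, 37.0 and 37.1 CPM. Of 14 tested genes of the network, 1 fell at 2 µM, and at 6 µM 2 rose and 1 fell. These were 7.14% and 21.4% of the list, beside 2.35% and 8.24% of all tested genes. The other call, Mycbp2 at 6 µM, ended in 3 of 21 alternative fits, those without replicate 2 or 3 of 0 µM or replicate 4 of 6 µM.

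MYC target genes were called in 1 direction only, higher. Of 30 tested, 3 rose at 2 µM and 12 at 6 µM, and none fell, with median log2 fold changes of 0.0748 and 0.134. The log2 fold change was above 0 in 24 of 30 at 2 µM and in 30 of 30 at 6 µM, beside 47.1% and 46.4% of all tested genes, of which 1.61% and 4.58% were called higher. Tfrc, the transferrin receptor, was at 65.0 ± 4.56, 66.4 ± 4.67 and 92.2 ± 6.31 CPM and was called at 6 against 0 µM (edgeR adjusted p = 1.93e-05) and at 6 against 2 µM (edgeR adjusted p = 0.000198). Pa2g4 and Shmt2 were 1.18-fold and 1.16-fold higher at 6 µM, and the nucleolar protein genes Ncl and Npm1 were each 1.15-fold higher. Ccnd2, Ddx21 and Shmt2 rose at 2 µM, where the count was 1 without replicate 4 of 2 µM and 5 without replicate 1 of 0 µM, and the calls of Ddx21 and Shmt2 there ended in 7 and 2 of 21 alternative fits. At 6 against 2 µM Cad was called besides Tfrc, and its call ended in 3. Myc mRNA itself did not differ between the PFOS doses beyond its spread.

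Immediate early mRNAs carry AU-rich elements that ZFP36 proteins bind to speed their decay. Of 16 genes for the turnover of such mRNAs and of MYC and JUN protein, 1 rose at 2 µM, and at 6 µM 3 rose and 1 fell. These were 6.25% and 25% of the list, beside 2.35% and 8.24% of all tested genes. Zfp36l1 fell from 19.6 ± 2.38 to 13.5 ± 0.545 CPM at 6 µM (edgeR adjusted p = 0.000821). Its relative Zfp36l2 was 1.15-fold higher at both doses (edgeR adjusted p = 0.0106 and 0.00211), and Huwe1, a ubiquitin ligase that acts on MYC, was 1.19-fold higher at 6 µM. Gsk3b was called too at 6 µM, and this ended in 13 of 21 alternative fits. Of 10 genes of the BCL2 family, which carry out the cell death decisions that IER3 affects, Bid alone was called, 1.18-fold lower at 6 µM (ended in 4 of 21). This 10% of the list lay near the 8.24% of all tested genes.

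**Figure D5:**
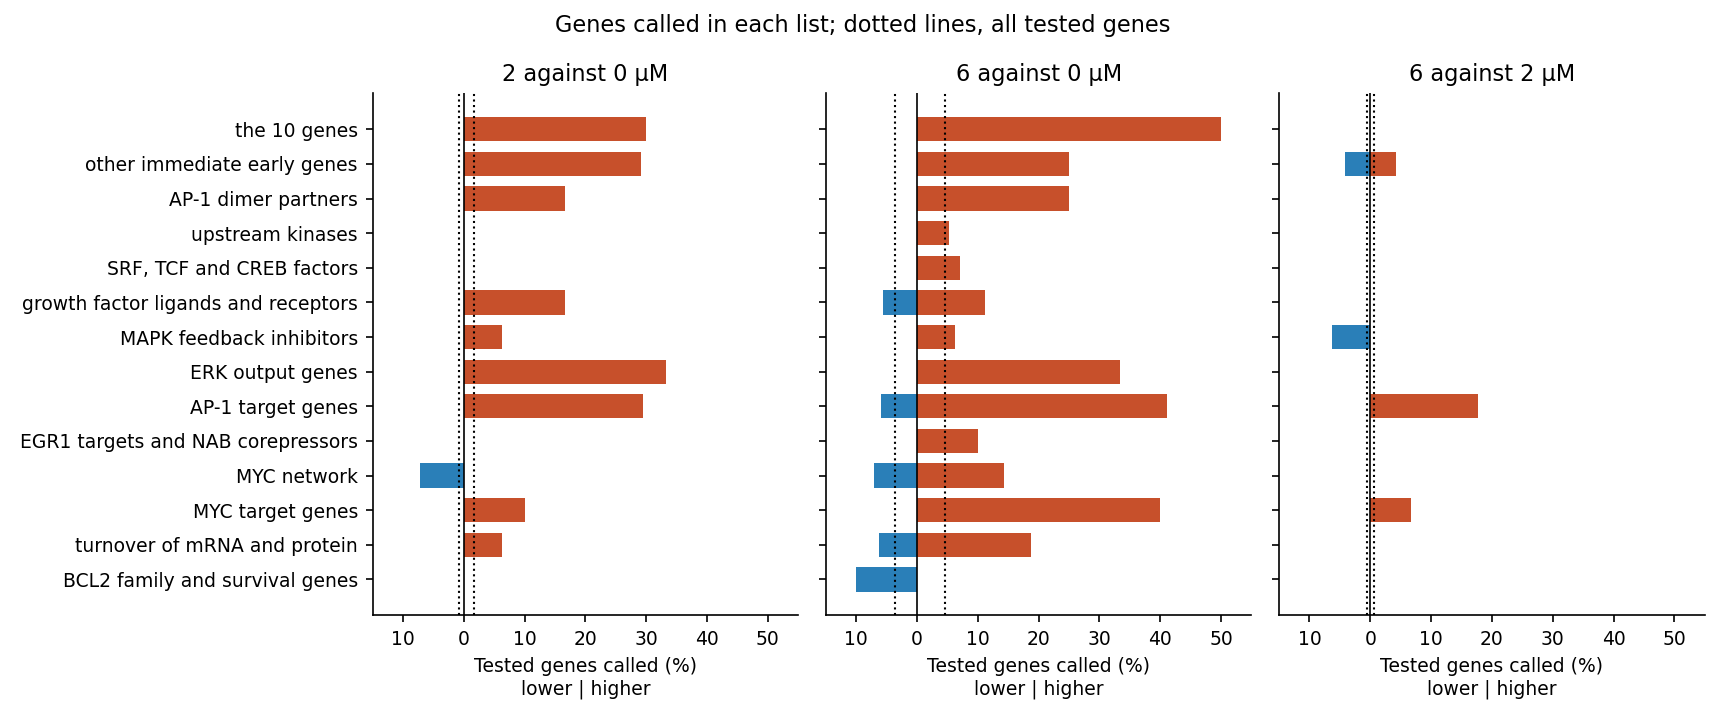
Percent of the tested genes of each list (rows) called higher (red, to the right) or lower (blue, to the left) in the 3 comparisons; dotted lines mark the percent of all tested genes called in each direction. The 10 genes reach 30% at 2 against 0 µM and 50% at 6 against 0 µM, all higher, while upstream kinases stay at or near the dotted lines.

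Total counts ranged from 30206155 to 50351082 over the 12 libraries. Of 8 myoblast markers 7 were tested, and the summed level of the 8 in a library was 541 to 634.8 CPM at 0 µM, 532.3 to 578.2 at 2 µM and 502.3 to 555.6 CPM at 6 µM. Des and Itga7 made up most of this sum (means 239.2 and 177.5 CPM). At 6 against 0 µM, 3 of the 7 were called lower and none higher, 42.9% beside 8.24% of all tested genes. All 7 had a log2 fold change below 0 there, with a median of -0.356. At 2 against 0 µM 1 was called lower (14.3%, beside 2.35%). Myod1 was 1.303-fold lower at 6 µM and Cdh15 was 1.19-fold lower (ended in 9 of 21 alternative fits), while Pax7 had at most 0.379 CPM in any library. Summed macrophage markers stood at 0.37 to 1.58 CPM and endothelial markers at 4.58 to 7.17 CPM. Most of these sums came from 1 gene each, Cd68 (mean 0.827 CPM over the 12 libraries) and Cdh5 (mean 5.83 CPM). Summed adipocyte markers were at 9.92 to 12.2 CPM at 0 µM, 11.4 to 14.8 at 2 µM and 16.4 to 19.1 CPM at 6 µM, through Lipe and Fabp4 (1.81-fold and 1.38-fold higher at 6 than at 0 µM, the latter ended in 9 of 21), with Adipoq at 0 in all libraries. Epithelial markers stood at 17.7 to 23.0 CPM, nearly all of it from Krt14 alone (17.7 to 23.0 CPM), with Cldn4 at 0. Whether the fall in myoblast markers or the rise in Lipe and Fabp4 has a part in the changes of the 10 genes was not tested.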

How the data were processed

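The authors deposited 1 table of raw counts by gene, with gene lengths and coordinates. HISAT2 and the build GRCm39 are named per the submitters' processing notes, whereas 98.3% of 54495 genes shared with GENCODE release M21 have its GRCm38 coordinates, 9 of the 10 genes among them (all but Fosl1, whose span in the table differs from that release). Coordinates are therefore given as GRCm38. Not given in the sources used here are the aligner version, the counting program, its strand setting and the annotation. Reads of overlapping genes and of near-identical copies may therefore be misassigned.

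These counts went into edgeR 4.0.16 under R 4.3.3 (TMM scaling, filterByExpr by dose, quasi-likelihood test, 1 mean per dose over 12 libraries, 9 residual degrees of freedom). Calls required an adjusted p under 0.05 (Benjamini-Hochberg, 16038 genes), and the filter left out 38494 genes. The 95% intervals come from the same fits. CPM used TMM-scaled library sizes, and log2 CPM a prior count of 2. Each library was placed in its dose by its sample title, and replicate numbers are those of the titles. No pair of libraries of a dose matched within sampling noise by a chi-square test of the counts. The steps were tested on simulated counts. limma 3.58.1 and DESeq2 1.42.0 served as alternatives, besides other scalings, filters and sets of libraries, 21 in all.

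The 10 genes and the gene lists were chosen with earlier results of these data known. All 10 genes are given whatever their p. From each list, up to 3 called genes per direction and comparison with the smallest adjusted p are named. A few genes that this rule or the next names are not reported here. Genes most like a called gene are the 3 of highest Pearson r among protein-coding genes with a mean log2 CPM of at least 1. Srf, Max, Nab1, Nab2, Egr2, Egr3, Junos, Prdx2, Vegfa, Ccnd1, Ncl, Npm1, Tef, Dbp and the overlapping or uncalled genes given with values were named outside this rule, with their values seen. Ccn1, Ccn2 and other renamed genes were matched by the older symbols in the table.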

Additional observations from a re-analysis of the deposited data

Results flagged for a closer look

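In 51 groups of 4 libraries, 4 had a library whose gap to the nearest other was too large a part of the range of the group by Dixon's limit, where chance gives about 1 in 20. Jund at 0 µM stood at 17.9 CPM in replicate 1, against 30.8 to 31.2 CPM in the other 3. Jund at 6 µM stood at 33.8 CPM in replicate 1, against 29.9 to 30.5 CPM. Ier3 at 6 µM stood at 189 CPM in replicate 2, against 215 to 217 CPM, still above every library of the other doses. The share of Fosl1 in the FOS family at 0 µM was 60.7% in replicate 2, against 56.3% to 56.7%.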

How the results depend on the processing

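The calls and log2 fold changes of the 10 genes and the counts of called genes were recomputed under 21 alternatives: 2 scalings, 2 filters, 2 other tools, a fit of only the 2 compared doses, a replicate block, 12 fits without 1 library, and 1 without the 3 libraries farthest from their dose means. Family shares were recomputed without division by length, without single libraries and without those 3, and the correlations with a prior count of 0.5 (0 pairs passed adjustment, as before) and without 2 libraries. Levels, ranges and ranks of likeness were not recomputed. Of the 10 genes, 2 to 4 were called higher at 2 against 0 µM throughout, and none was called lower in any comparison. At 6 against 0 µM the count of 5 fell to 3 without the 3 deviating libraries. At 6 against 2 µM the count of 0 became 1 (Ier3) with upper-quartile scaling, with no count filter, with a mean count of at least 50, with only the 2 compared doses, with DESeq2 and with limma-voom, and was 0 to 1 without single libraries (0 without replicate 2 of 0 µM and 1 without replicate 1 of 0 µM). Signs turned only where no call was made. The log2 fold change of Fos became 0.0746 at 2 and 0.0694 at 6 against 0 µM without the 3 libraries, and 0.0158 at 6 against 2 µM with limma-voom, and that of Jund at 2 against 0 µM became -0.00965 without the 3 libraries. Without single libraries the log2 fold change of Fos ran from -0.264 to 0.0798 (2 against 0 µM), -0.191 to 0.058 (6 against 0) and -0.157 to 0.193 (6 against 2), that of Fosb from -0.0183 to 0.215 (6 against 2), that of Jun from -0.0204 to 0.033 (6 against 2) and that of Jund from -0.0111 to 0.21 (2 against 0) and -0.0277 to 0.072 (6 against 2). Differences in family share, in percentage points, turned for Fosb at 6 against 2 µM (0.00579 without the 3 libraries, and -0.0398 to 0.0206 without single ones), for Jund at 2 and 6 against 0 µM (-0.802 and -0.856 without the 3, and -0.802 to 1.31 and -1.03 to 1.08 without single ones) and at 6 against 2 µM (-0.758 to 0.112), and for Fos at 6 against 2 µM (-0.286 to 0.0392). The cause of these moves was not tested.

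No pairing of the libraries by replicate number was seen: over 12 same-numbered pairs, correlations of deviations from the dose means ran from -0.028 to 0.0375. These correlations weigh all tested genes alike, so noise in genes of low counts could hide a pairing. With the replicate block the call of Jun at 2 against 0 µM ended (adjusted p = 0.088), 2 of the 10 genes were called higher there, and no other of their calls changed. Over all genes, the block moved the calls from 377 to 273, from 1322 to 1154 and from 178 to 123. Over all alternatives the calls over all genes ran from 106 (without replicate 4 of 2 µM) to 751 (DESeq2) at 2 against 0 µM, from 710 (without the 3 deviating libraries) to 1828 (DESeq2) at 6 against 0 µM, and from 82 (without replicate 4 of 2 µM, and likewise without replicate 4 of 6 µM) to 445 (DESeq2) at 6 against 2 µM. Of 31 counts of called genes in the lists that were above 0, 10 stayed within 1.5 times their value under every alternative and 21 did not, all of them counts of at most 6 genes. Counts of Fos or Fosb in a library were 38 to 86, and their intervals were the widest of the 10 genes.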
